A study of Arabidopsis thaliana with 6 samples.

Results

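Gene expression in Arabidopsis thaliana samples labelled as leaf and kept for 12 h with 1000 µM melatonin was compared with that in samples kept for 12 h with 100 µM melatonin. Every gene with enough counts was tested. The comparison used 4 of the 6 RNA-sequencing libraries of the study, 2 per dose, chosen by the treatment named in the labels. The remaining 2 libraries came from plants kept for 12 h without melatonin. They shared the estimate of the spread, and their values are given where the lower dose lay outside both other groups. In all 3 groups the plants were wild type, had grown for 7 days on plates of MS, a mineral culture medium, and gave total RNA from rosette leaves, according to the labels. The study's title speaks of root growth, while every label names leaf. The labels do not give the light, the solvent of the melatonin or whether separate plants gave each library, and the p-values given here therefore rest on differences between libraries that may be technical replicates.

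Melatonin is an indoleamine that plants make from tryptophan by way of serotonin. It can act as a scavenger of reactive oxygen, and when it is added to plants its effects on growth and stress responses are known to depend on the dose. Plants handle foreign or reactive small molecules in stages: cytochrome P450s and reductases alter them, glutathione transferases and UDP-glycosyltransferases attach glutathione or a sugar, and ABC and MATE transporters carry the products across membranes.

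Library totals were 7651170 and 7723602 counts at 1000 µM and 6641570 and 6410046 counts at 100 µM. The libraries at 1000 µM differed more from each other (chi-square per degree of freedom 5.43) than those at 100 µM (1.81). The leaf gene RBCS1A, which encodes a small subunit of Rubisco, stood at 8498 and 7398 CPM (counts scaled by the adjusted size of each library, as defined by edgeR) at 1000 µM, against 10933 and 10586 CPM at 100 µM. Of 18 root markers in the table, 16 had over 3 counts in each of the 6 libraries and 0 were at zero throughout. Transcripts of root markers were thus present in samples labelled as leaf, and whether these held root tissue was not tested. The summed level of the root markers was 2235 and 2273 CPM at 1000 µM, against 3336 and 3396 CPM at 100 µM, most of it from the beta-glucosidase gene PYK10. Without PYK10 it was 229 and 222 CPM against 275 and 278 CPM. Markers of guard cells summed to 105 and 100 CPM against 91.9 and 83.1 CPM. Those of the shoot apex summed to 25.2 and 25.5 CPM against 24.0 and 26.9 CPM, with the apex gene CLV3 at zero counts in every library, and seed storage genes to 16.6 and 8.6 CPM against 3.88 and 9.94 CPM. In such bulk samples, fewer cells of a type and less RNA per cell cannot be told apart.

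Samples at 1000 µM had higher levels than those at 100 µM of many genes of detoxification, salicylic acid signalling and heat stress. They had lower levels of many genes of phenylpropanoids, aliphatic glucosinolates, jasmonate and photosynthetic carbon fixation, as counted for each list below. Of 18380 genes tested, 2932 (16.0%) passed an adjusted p of 0.05 in edgeR's quasi-likelihood test with Benjamini-Hochberg adjustment; such genes are named called below. At 1000 µM, 1590 genes (8.65%) were higher and 1342 (7.30%) were lower than at 100 µM. Most of these differences were small: the median absolute log2 change of called genes was 0.60, 2298 of them differed by less than 2-fold, and 634 differed by at least 2-fold, 397 upward and 237 downward. At least 4-fold differences were found for 74 genes that were higher and 33 that were lower. Genes called higher held 21.7% and 20.3% of all CPM at 1000 µM, against 13.9% and 14.1% at 100 µM, and genes called lower held 12.4% and 12.9% against 18.7% and 18.6%.

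**Figure D1:**
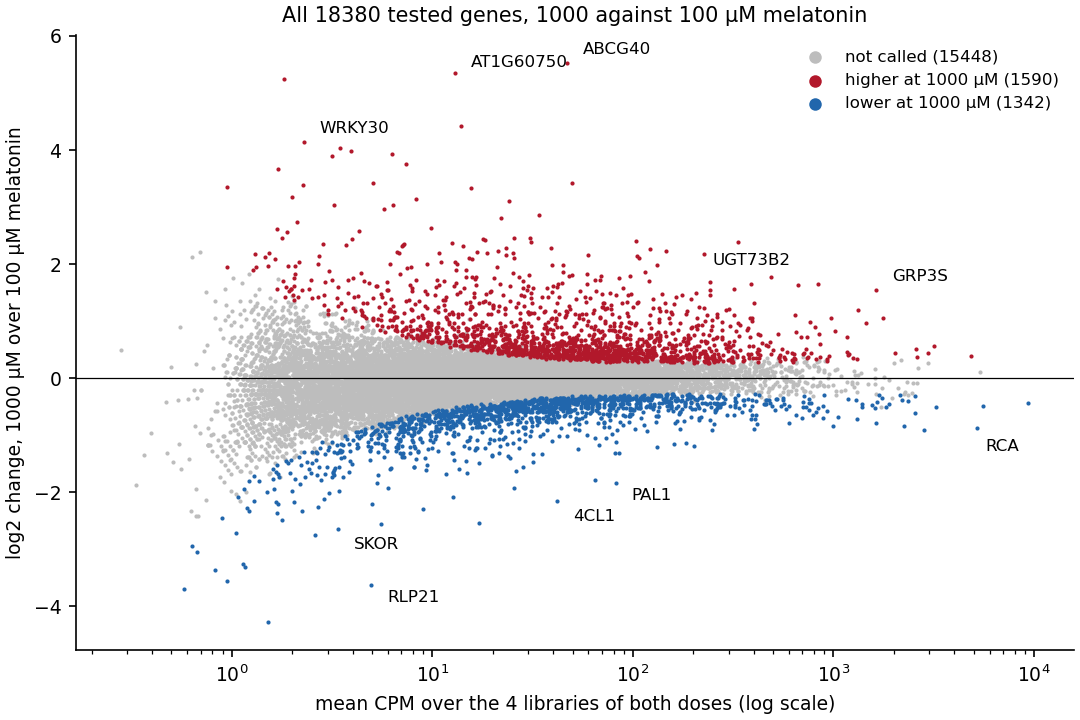
Each point is 1 of the 18380 tested genes, with its mean CPM over the 4 libraries of both doses on a log axis and its log2 change, 1000 µM over 100 µM, on the vertical axis. Red points (1590) were called higher at 1000 µM, blue points (1342) lower, and grey points were not called; among the labelled genes ABCG40 stands highest at 5.53 and RLP21 lowest at -3.63.

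The split between directions depended on the scaling of the libraries. With upper-quartile scaling, which moved the median of all genes by -0.05 on the log2 scale, 1310 genes were higher and 1670 lower, so that 44.0% of calls were upward in place of 54.2%. Among the 397 genes at least 2-fold higher, 1000 µM replicate 1 lay above replicate 2 in 316, whereas among the 237 at least 2-fold lower, replicate 1 was the lower of the pair in 121. In all 4 fits that left out 1 library of these doses, 875 calls were kept, 565 upward and 310 downward, which is 29.8% of all calls. Without 100 µM replicate 1 or 2 the test called 1158 or 1257 genes, and without 1000 µM replicate 1 or 2 it called 2981 or 4442. When a library is left out, the lone library of that dose is taken to vary like the other groups. The genes named below with their CPM passed in all 4 of these fits unless stated otherwise. Of 155 genes named by rule, 44 overlap another annotated gene, so their counts may hold reads of a neighbour.

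Rises and falls were ranked among called genes with a mean of at least 2 CPM over the 4 libraries, no overlap between the doses and a call in all 4 leave-out fits. By this ranking the largest rise belonged to ABCG40 (AT1G15520), a drug-resistance transporter of the plasma membrane known to import abscisic acid. ABCG40 had 117 and 67.6 CPM at 1000 µM, against 1.19 and 2.80 CPM at 100 µM, a log2 change of 5.53 ± 0.31 (SE; adjusted p = 3.44e-09), or 46.1-fold. The groups were far apart. AT1G60750, an oxidoreductase gene of the aldo-keto reductase type, had 22.6 and 28.3 CPM against 0.746 and 0.466 CPM, a log2 change of 5.35 ± 0.32 (adjusted p = 1.45e-08). AT1G53625, whose product is uncharacterized, had 33.0 and 20.2 CPM against 1.79 and 0.621 CPM (log2 change 4.42 ± 0.35, adjusted p = 1.23e-07). The size of 2 of these rises depended on which 100 µM library was used: ABCG40 had a log2 change of 6.25 without 100 µM replicate 2, and AT1G53625 of 5.38 without 100 µM replicate 1.

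WRKY30 (AT5G24110), a stress-induced transcription factor gene, had 4.98 and 3.67 CPM at 1000 µM and 0.149 and 0.311 CPM at 100 µM. Since 100 µM gave 3 counts in all, its rise is given as a ratio of 18.8, with an exact 95% interval of 6.16 to 93.6 that covers counting error alone. The other rises among the 10 largest were AT1G56060, which encodes a cysteine-rich transmembrane protein (7.89 and 5.18 CPM at 1000 µM, against 0.298 and 0.466 CPM at 100 µM), the RING/U-box gene AT3G61390 (6.37 and 8.47 CPM against 0.298 and 0.621 CPM), and AT2G23110, annotated as a late embryogenesis abundant protein (11.1 and 12.5 CPM against 1.04 and 0.466 CPM). Log2 changes of these 3 genes were 4.03, 3.98 and 3.93. Without 100 µM replicate 2 the change of AT3G61390 was 4.56, and without 100 µM replicate 1 that of AT2G23110 was 4.62. AT3G62990, AT4G08555 and AT5G25260 rose by 3.89, 3.76 and 3.43 on the log2 scale. AT5G25260, a membrane protein gene of the SPFH domain type, was the most strongly counted of the 3, with 109 and 72.1 CPM at 1000 µM and 7.61 and 9.17 CPM at 100 µM.

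By the same ranking the largest fall belonged to RLP21 (AT2G25470), a receptor-like protein gene, with 0.692 and 0.758 CPM at 1000 µM, against 9.40 and 9.01 CPM at 100 µM (log2 change -3.63 ± 0.34, adjusted p = 1.05e-06). LURP1 (AT2G14560), a gene known from responses to downy mildew, had 0.692 and 0.632 CPM against 5.67 and 3.42 CPM (log2 change -2.75 ± 0.46, adjusted p = 0.000415). SKOR (AT3G02850), the potassium channel that loads the xylem in the root stele and 1 of the root markers, had 0.831 and 1.01 CPM against 5.22 and 6.52 CPM (log2 change -2.64 ± 0.37, adjusted p = 8.43e-05). In all 3 genes both libraries at 1000 µM were below both at 100 µM, which the ranking required and which held for every gene called lower.

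The phenylpropanoid enzymes 4CL2 (AT3G21240) and 4CL1 (AT1G51680), which activate coumaric acid for lignin and flavonoids, were also among the 10 largest falls. 4CL2 had 3.32 and 2.78 CPM at 1000 µM and 16.6 and 13.2 CPM at 100 µM, and 4CL1 had 16.1 and 14.4 CPM and 67.7 and 68.7 CPM (log2 changes -2.29 ± 0.23 and -2.16 ± 0.12). The remaining 5 were AT4G25090, AT4G15390, AT2G47010, the serine carboxypeptidase-like gene SCPL12 (AT2G22920) and the RING/U-box gene AT1G72200, with log2 changes of -2.56, -2.53, -2.33, -2.21 and -2.12. SCPL12 had 1.11 and 2.40 CPM at 1000 µM, against 9.40 and 7.15 CPM at 100 µM, and its change was -2.87 without 1000 µM replicate 2. AT4G15390, annotated as an acyltransferase, was the most strongly counted of the 5, with 4.57 and 5.44 CPM against 30.0 and 28.1 CPM.

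**Figure D2:**
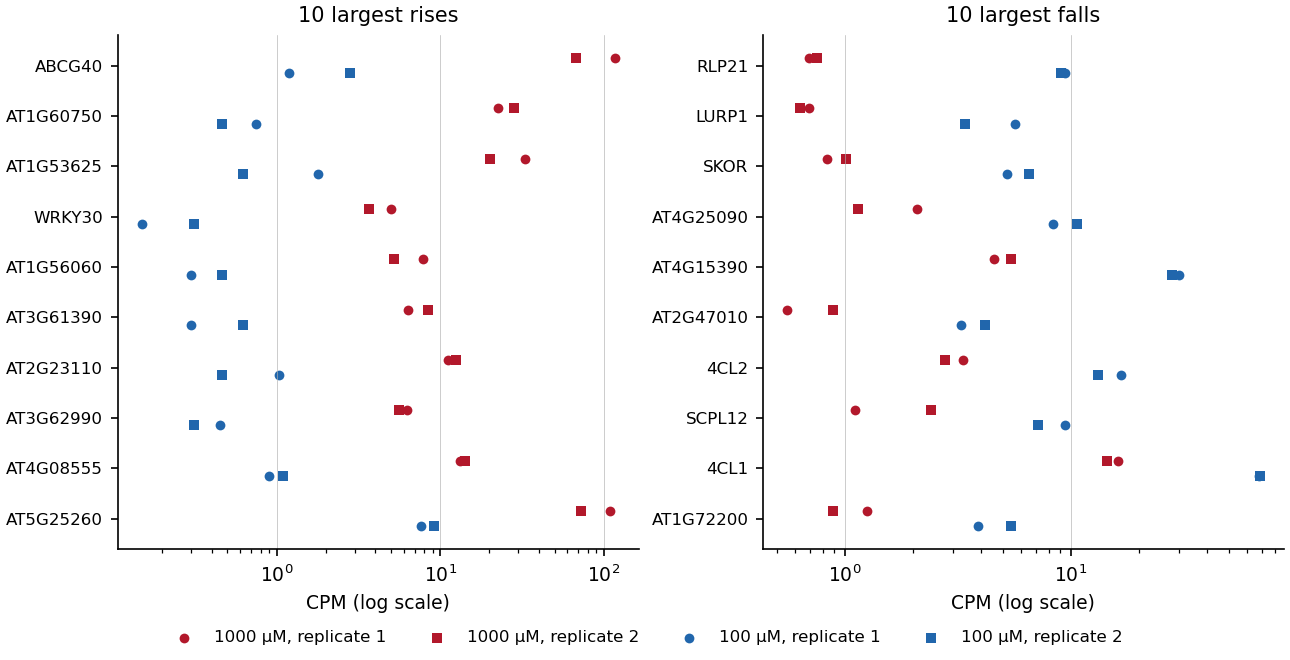
CPM on a log axis for the 10 largest rises (left) and the 10 largest falls (right), with red points for the libraries at 1000 µM and blue points for those at 100 µM; circles are replicate 1 and squares replicate 2. For each of the 20 genes the red and blue points do not overlap, which the ranking required. ABCG40 has the largest change, 117 and 67.6 CPM against 1.19 and 2.80 CPM.

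The promoters of the 2 largest rises and the 3 largest falls are shown because their genes mark the ends of the response, from 250 bases before to 50 bases from the start annotated by RefSeq on TAIR10.1. Capitals mark matches, on either strand, to any of 9 short motifs: TGACG (as-1 core, bound by TGA factors), TTGAC (W-box core, bound by WRKY factors), CACGTG (G-box), GCCGCC (GCC box), GATAAG (I-box), AAATATCT (evening element), GAANNTTC (heat shock element), TGGGCC (site II element) and AACCCTAA (telo-box). ABCG40 lies on the minus strand of chr1:5338277-5338576 and AT1G60750 on the minus strand of chr1:22363805-22364104. RLP21 lies on the plus strand of chr2:10838044-10838343, LURP1 on the plus strand of chr2:6213367-6213666 and SKOR on the minus strand of chr3:623690-623989.
ABCG40: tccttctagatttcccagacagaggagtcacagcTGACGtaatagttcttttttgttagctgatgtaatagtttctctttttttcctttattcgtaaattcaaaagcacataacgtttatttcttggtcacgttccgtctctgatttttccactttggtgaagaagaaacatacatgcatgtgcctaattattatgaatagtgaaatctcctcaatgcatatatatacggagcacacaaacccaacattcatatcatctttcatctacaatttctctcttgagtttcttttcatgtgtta
AT1G60750: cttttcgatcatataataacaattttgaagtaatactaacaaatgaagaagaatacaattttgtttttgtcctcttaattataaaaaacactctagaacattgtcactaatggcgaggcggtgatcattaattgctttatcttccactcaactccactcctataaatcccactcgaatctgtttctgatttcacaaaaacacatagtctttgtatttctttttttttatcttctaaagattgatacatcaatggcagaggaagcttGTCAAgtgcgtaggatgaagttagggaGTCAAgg
RLP21: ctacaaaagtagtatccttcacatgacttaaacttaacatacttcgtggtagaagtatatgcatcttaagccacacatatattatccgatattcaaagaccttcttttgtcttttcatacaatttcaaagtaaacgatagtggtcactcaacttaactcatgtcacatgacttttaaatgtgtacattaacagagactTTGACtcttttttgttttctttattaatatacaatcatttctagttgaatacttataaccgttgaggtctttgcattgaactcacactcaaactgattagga
LURP1: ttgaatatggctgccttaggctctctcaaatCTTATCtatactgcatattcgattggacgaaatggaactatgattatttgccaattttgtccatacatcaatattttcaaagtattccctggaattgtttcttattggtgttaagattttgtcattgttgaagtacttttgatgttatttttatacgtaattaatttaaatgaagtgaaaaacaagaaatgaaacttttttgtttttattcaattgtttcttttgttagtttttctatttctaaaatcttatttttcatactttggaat
SKOR: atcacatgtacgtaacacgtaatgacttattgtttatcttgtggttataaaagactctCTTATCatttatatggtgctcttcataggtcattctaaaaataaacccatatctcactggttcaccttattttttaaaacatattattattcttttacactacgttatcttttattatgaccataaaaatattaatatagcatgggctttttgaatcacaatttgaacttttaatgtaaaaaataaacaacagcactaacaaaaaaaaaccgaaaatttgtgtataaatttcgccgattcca

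The ABCG40 window held 1 as-1 core, before the annotated start, and that of AT1G60750 held 2 W-box cores. Both W-box cores of AT1G60750 lay after its annotated start, and the bases before that start held no match. The letters from this start open with ATG, so these matches may lie in coding sequence and not in the promoter. The RLP21 window held 1 W-box core, and those of LURP1 and SKOR 1 I-box each. Over all genes, the heat shock element stood in 21.2% of 396 promoters of genes at least 2-fold higher at 1000 µM, in 5.93% of 236 promoters of genes at least 2-fold lower and in 11.3% of all 18228 tested promoters. For the W-box core the shares were 66.4%, 56.4% and 50.9%, and for the as-1 core 32.8%, 26.7% and 23.8%. For the I-box they were 13.1%, 18.2% and 14.9%. For the GCC box they were 3.03%, 0.424% (1 promoter) and 2.71%, and for the site II element 10.9%, 5.93% and 19.3%. The G-box was found in 8.59%, 11.4% and 8.78%, the evening element in 7.58%, 5.08% and 5.91% and the telo-box in 1.01%, 2.54% and 4.43% of promoters of genes at least 2-fold higher, at least 2-fold lower and of all. Mean GC content was 31.5%, 30.8% and 32.0% in the same 3 sets. These shares are descriptions of letters and carry no test.

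Most genes of the detoxification list rose, a list chosen, like the others, with earlier results of these data known. The whole families of cytochrome P450s, UDP-glycosyltransferases and MATE efflux genes, counted below, had median log2 changes of -0.15, -0.04 and -0.1. Of 20 genes of reactive carbonyl and drug detoxification, 16 were higher at 1000 µM and 0 lower, 15 of them in all 4 leave-out fits, with a median log2 change of 1.36 beside -0.002 over all tested genes. UGT73B4 (AT2G15490), a glycosyltransferase, had 40.6 and 36.9 CPM at 1000 µM, against 7.75 and 8.08 CPM at 100 µM (log2 change 2.29 ± 0.16, adjusted p = 4.16e-08). CYP81D11 (AT3G28740), a cytochrome P450 induced by many xenobiotics, had 144 and 133 CPM against 53.8 and 46.4 CPM (log2 change 1.46 ± 0.11, adjusted p = 1.00e-07). Besides these and ABCG40, called members were OPR1 and OPR2, reductases of reactive carbonyls (1.69 and 1.25 on the log2 scale), the alkenal reductase AER (0.74), the aldo-keto reductases AKR4C8 and ChlAKR (0.99 and 1.68), CYP81D8 (2.23), UGT73B3, UGT73B5, UGT74E2 and UGT75B1 (1.58, 1.58, 2.63 and 2.34), the efflux carrier DTX1 (1.13), the transcription factor NAC032 (1.12) and ABCC3 (0.41), the 1 call that was not kept.

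Of 42 glutathione transferases tested, 21 were higher and 7 lower, and 15 and 2 were so in all 4 leave-out fits (median log2 change 0.33). GSTU19 (AT1G78380) had 1440 and 1100 CPM at 1000 µM, against 414 and 393 CPM at 100 µM (log2 change 1.65 ± 0.12, adjusted p = 4.08e-08), and GSTF8 (AT2G47730) had 1240 and 788 CPM against 330 and 321 CPM (1.64 ± 0.15, adjusted p = 5.89e-07). Both ranked among the 6 largest gains in CPM of the genes that met the naming rule. GSTU7 (AT2G29420) had 226 and 194 CPM against 54.6 and 51.9 CPM (log2 change 1.98 ± 0.11, adjusted p = 3.36e-09), and GSTU1 (AT2G29490) had 40.0 and 43.4 CPM against 11.3 and 12.9 CPM (log2 change 1.78). Of the 5 tau members between them in the same cluster, GSTU2, GSTU3, GSTU4 and GSTU5 rose as well, by 2.33, 2.96, 1.25 and 0.57, and GSTU6 was not called (-0.02). Reads shared by such close copies may have been split or dropped in counting. The falls kept in all fits were GSTF14 and ERD9, a tau member, at -1.48 and -1.09.

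UDP-glycosyltransferases split into both directions: 25 of 92 were higher and 11 lower, and 14 and 1 in all 4 leave-out fits, with a median of -0.04. UGT73B2 (AT4G34135), which neighbours UGT73B1 and UGT73B3 and resembles them, had 374 and 368 CPM at 1000 µM, against 83.1 and 80.6 CPM at 100 µM (log2 change 2.18 ± 0.09, adjusted p = 3.39e-10). UGT73B3 (AT4G34131) had 59.3 and 52.5 CPM against 18.6 and 18.6 CPM (log2 change 1.58 ± 0.13). Of 150 cytochrome P450s, 18 were higher and 24 lower, and 12 and 4 were kept in all fits (median -0.15). CYP81D8 (AT4G37370) had 41.8 and 28.6 CPM against 7.31 and 7.61 CPM (log2 change 2.23 ± 0.23), and CYP71B22 (AT3G26200) 45.1 and 38.9 CPM against 16.9 and 14.0 CPM (1.44 ± 0.15). The 4 P450 falls kept in all fits were AT3G44970, CYP702A5, CYP708A2 and CYP94B1, with log2 changes of -0.98, -1.65, -1.13 and -0.78.

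Of 14 ABCC transporters, which carry glutathione conjugates into the vacuole, 7 were higher and 0 lower, but ABCC8 (AT3G21250) and ABCC2 (AT2G34660) alone were kept in all fits, at 0.70 ± 0.10 (adjusted p = 0.000104) and 0.52 ± 0.09 (adjusted p = 0.000725). Of 33 ABCG transporters, 5 were higher (ABCG40, ABCG1, ABCG6, ABCG30 and ABCG37) and 1, ABCG14, lower. ABCG1 (AT2G39350), a transporter linked to suberin, had 210 and 156 CPM at 1000 µM, against 54.7 and 57.8 CPM at 100 µM (log2 change 1.70 ± 0.13, adjusted p = 1.03e-07), and ABCG37 (AT3G53480), known to export coumarins and auxin precursors, changed by 0.59 ± 0.10. Among 39 MATE efflux genes, 9 were higher and 6 lower, with AT3G23550, DTX1 (AT2G04040) and AT1G33110 at 1.11, 1.13 and 0.64.

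Enzymes of reactive oxygen removal did not share one direction. Of 22 antioxidant genes, 3 were higher and 3 lower (median -0.04), beside 8.65% higher and 7.30% lower over all tested genes. DHAR2 (AT1G75270), a cytosolic dehydroascorbate reductase, had 104 and 73.1 CPM at 1000 µM, against 34.2 and 32.5 CPM at 100 µM (log2 change 1.41 ± 0.14, adjusted p = 2.60e-06), and the glutathione reductase GR1 (AT3G24170) had 162 and 149 CPM against 96.9 and 100 CPM (0.66 ± 0.09). The thylakoid ascorbate peroxidase TAPX (AT1G77490) was lower, with 59.1 and 59.7 CPM against 85.0 and 84.2 CPM (-0.51 ± 0.10). AOX1A (AT3G22370), the alternative oxidase of mitochondria, had 110 and 84.8 CPM against 41.2 and 26.3 CPM (1.52 ± 0.16, adjusted p = 3.34e-06), 1 of 2 called among 6 genes of alternative respiration. NAC13 (AT1G32870), a regulator of mitochondrial stress genes, had 27.4 and 22.6 CPM against 7.61 and 7.30 CPM (1.74 ± 0.18).

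Salicylic acid and jasmonate genes moved apart. Of 19 genes of salicylic acid and immunity, 11 were higher at 1000 µM and 0 lower, 10 of them in all 4 leave-out fits (median 0.71). EDS16 (AT1G74710), which encodes isochorismate synthase at the entry to salicylic acid, had 76.8 and 57.3 CPM at 1000 µM, against 20.0 and 22.4 CPM at 100 µM (log2 change 1.66 ± 0.15, adjusted p = 5.03e-07). The immune receptor kinase gene FRK1 (AT2G19190) had 29.9 and 32.6 CPM against 7.61 and 10.9 CPM (1.76 ± 0.17, adjusted p = 1.72e-06), and UGT76B1 (AT3G11340), which glycosylates immune regulators, 66.6 and 52.1 CPM against 20.9 and 26.9 CPM (1.31 ± 0.15). The other 8 were PBS3, EDS1, PAD4, NPR3, CBP60G, WRKY70, PR5 and UGT74F2, with log2 changes of 2.01, 0.62, 1.27, 0.69, 1.23, 0.71, 0.83 and 0.88. Changes of 17 of the 19 genes were positive, and those of WRKY54 (-0.57) and DMR6 (-0.45), which were not called, were negative. A further 6 genes of the list were not tested. Outside the list, the pathogen-response genes LURP1 and PCC1 were lower, at -2.75 and -1.42.

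Of 23 jasmonate genes, 10 were lower and 0 higher (median -0.48). The count was 6 without 100 µM replicate 1, 6 without 100 µM replicate 2, and 5 calls were kept in all fits. LOX2 (AT3G45140), the lipoxygenase that feeds jasmonate synthesis in the chloroplast, had 134 and 111 CPM at 1000 µM, against 302 and 258 CPM at 100 µM (log2 change -1.19 ± 0.13, adjusted p = 4.21e-06). AOC2 (AT3G25770), an allene oxide cyclase with close copies, had 47.4 and 36.4 CPM against 98.3 and 89.9 CPM (-1.17 ± 0.13, adjusted p = 3.91e-06). TIFY7 (AT1G70700), a JAZ repressor of jasmonate responses, had 105 and 101 CPM against 163 and 163 CPM (-0.66 ± 0.09). The other tested genes of this kind, JAZ1, TIFY10B, JAZ5, JAZ6, JAZ7 and JAZ10, were not called (0.16, -0.27, -0.05, -0.19, -0.17 and -0.66). AOS (-0.3) and MYC2 (0.06) were not called either, and 6 of the 23 changes were positive. The remaining kept falls were AOC1 and the storage protein gene VSP1, at -0.69 and -1.58.

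Ethylene genes were higher where called, 5 of 18, with 3 kept in all fits. ACS7 (AT4G26200) and ACS8 (AT4G37770), which make the ethylene precursor, rose by 1.32 ± 0.16 (adjusted p = 1.82e-05) and 1.16 ± 0.21 (adjusted p = 0.000782) on the log2 scale. ACS7 had 43.1 and 33.4 CPM at 1000 µM and 17.0 and 13.5 CPM at 100 µM. The organ growth gene ARL (AT2G44080) had 251 and 204 CPM against 109 and 124 CPM (0.97 ± 0.11). Among 20 genes of abscisic acid and dehydration, 4 were higher and 1 lower, and RD26 (AT4G27410), a NAC transcription factor, was the 1 kept in all fits, with 88.2 and 90.1 CPM against 39.7 and 38.5 CPM (1.19 ± 0.12, adjusted p = 1.42e-06).

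Calls among genes of the growth hormones held in all 4 leave-out fits about as seldom as calls over all genes. Of 14 auxin response genes 4 were higher and 0 lower, and IAA7 (AT3G23050), an auxin-signalling repressor, was the 1 kept in all fits (346 and 340 CPM at 1000 µM, against 229 and 246 CPM at 100 µM, log2 change 0.53 ± 0.09). Among 16 genes of auxin synthesis and transport, 2 were higher and 4 lower, and the transporter ABCB4 (AT2G47000) was higher by 0.73 ± 0.10 and the influx carrier AUX1 (AT2G38120) lower, at -0.51 ± 0.09, in all fits. Of 15 gibberellin genes 2 were higher and 2 lower, 1 of each in all fits. GA3OX1 (AT1G15550), the last step to active gibberellin, had 25.8 and 19.1 CPM against 11.6 and 8.70 CPM (1.13 ± 0.19, adjusted p = 0.000577), while GASA4 (AT5G15230), a gibberellin-regulated gene, had 32.0 and 42.5 CPM against 59.4 and 59.8 CPM (-0.67 ± 0.12). Of 8 cytokinin response genes 2 were lower, ARR6 and ARR9 (AT3G57040), and of 12 brassinosteroid genes 3 were higher, BR6OX2 (AT3G30180), BRI1 and BZR1. None of these 5 calls was kept in all 4 leave-out fits: the adjusted p of ARR9 was 0.234 without 100 µM replicate 2, and that of BR6OX2 was 0.208 without the same library.

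Most phenylpropanoid genes fell. Of 20 genes from phenylalanine to lignin, 14 were lower at 1000 µM and 0 higher, 10 of them in all 4 leave-out fits (median -0.80). PAL1 (AT2G37040), the phenylalanine ammonia-lyase at the entry of the pathway, had 37.0 and 35.1 CPM at 1000 µM, against 129 and 127 CPM at 100 µM (log2 change -1.83 ± 0.10, adjusted p = 3.44e-09). PAL2 (AT3G53260) had 50.8 and 42.3 CPM against 115 and 117 CPM (-1.32 ± 0.11, adjusted p = 1.44e-07). Besides 4CL1 and 4CL2, described above, the kept falls were C4H, HCT, CCoAOMT1, OMT1, ATCAD4 and LysoPL2, with log2 changes of -1.20, -1.04, -0.66, -0.78, -0.90 and -0.98. OMT1 (AT5G54160), the caffeic acid O-methyltransferase that can also methylate N-acetylserotonin to melatonin, had 120 and 117 CPM against 194 and 214 CPM (adjusted p = 1.39e-05), and it was the 1 called of 3 tested genes of melatonin synthesis and perception. Of 6 tryptophan synthesis genes 1 was lower, TRP1 (AT5G17990), with 23.5 and 26.4 CPM against 40.7 and 44.9 CPM (-0.77 ± 0.12). MYB4 (AT4G38620), known as a repressor of the phenylpropanoid gene C4H, was higher, with 119 and 168 CPM against 52.9 and 51.1 CPM (1.47 ± 0.14, adjusted p = 9.65e-07).

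Of 11 flavonoid genes, 6 were lower and 0 higher (median -0.89), but the count was 1 without 100 µM replicate 1, 3 without 100 µM replicate 2 and 4 without 1000 µM replicate 1. The kept fall was FLS1 (AT5G08640), flavonol synthase, at -0.78 ± 0.15 (adjusted p = 0.00126). Aliphatic glucosinolates, sulfur-rich defence compounds made from methionine, followed the same direction: 9 of 14 genes were lower and 0 higher (median -0.74), with 4 calls without 100 µM replicate 1 and the same 4 in all fits. These were IMS2 (AT5G23020) and BCAT4 (AT3G19710) of methionine chain elongation, IMD1 (AT5G14200) and the plastid transporter BAT5. IMS2 had 37.4 and 47.3 CPM at 1000 µM, against 89.6 and 85.3 CPM at 100 µM (-1.04 ± 0.12, adjusted p = 6.89e-06), and BCAT4 had 8.72 and 11.0 CPM against 26.8 and 19.4 CPM (-1.23 ± 0.19). Indole glucosinolate and camalexin genes, made from tryptophan, had 2 higher and 2 lower of 14 (CYP81F2 and PEN3, and UGT74B1 and GGP1), none kept in all fits. CYP81F2 (AT5G57220) had a log2 change of 0.75 (adjusted p = 0.00741), and 0.58 (adjusted p = 0.132) without 100 µM replicate 1.

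**Figure D3:**
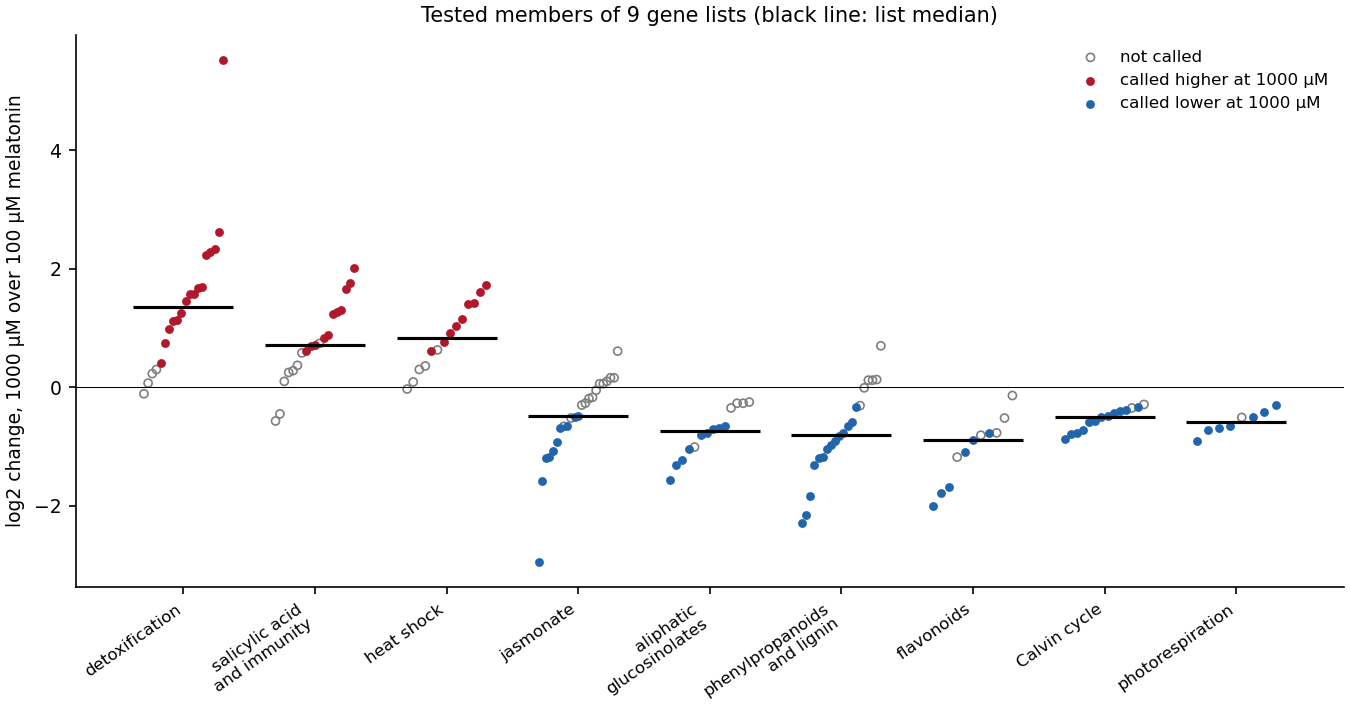
Each point is a tested member of 1 of 9 gene lists, at its log2 change, 1000 µM over 100 µM; red and blue points were called higher and lower, open points were not called, and black lines are list medians. Detoxification (median 1.36), salicylic acid (0.71) and heat shock (0.84) lie above zero, and the other 6 lists have medians between -0.48 and -0.89.

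Most genes of carbon fixation and photorespiration fell. Of 14 Calvin cycle genes, 12 were lower at 1000 µM and 0 higher (median -0.49), and of 8 photorespiration genes 7 were lower and 0 higher (median -0.58). Without 100 µM replicate 1 or 2 the Calvin cycle count was 5 in either case, and 5 photorespiration calls were kept in all fits. RCA (AT2G39730), the activase of Rubisco, had 3700 and 3700 CPM at 1000 µM, against 6810 and 6680 CPM at 100 µM (log2 change -0.87 ± 0.10, adjusted p = 1.47e-05), the largest loss in CPM among genes that met the naming rule. GLDP1 (AT4G33010), glycine decarboxylase of photorespiration, had 2170 and 1770 CPM against 3740 and 3600 CPM (-0.90 ± 0.11), and SHM1 (AT4G37930), its partner in serine formation, had 940 and 1050 CPM against 1650 and 1620 CPM (-0.72 ± 0.10). Carbonic anhydrase CA1 (AT3G01500), GAPB (AT1G42970), SBPASE (AT3G55800) and the glycolate oxidase GOX1 (AT3G14420) had log2 changes of -0.84, -0.79, -0.78 and -0.68. The groups overlapped between the doses in 0 of the 2932 called genes, so the separation of these 7 genes adds nothing to their calls.

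Light-harvesting and photosystem genes of the nucleus gave the same direction with calls that moved with the library left out. Of 20 light-harvesting genes 9 were lower and 1 higher (median -0.39), and the lower count was 4 without either 100 µM library and 16 without 1000 µM replicate 1. LHCB3 (AT5G54270) had 37.0 and 37.5 CPM at 1000 µM, against 68.6 and 71.3 CPM at 100 µM (-0.91 ± 0.10, adjusted p = 7.98e-06), and LHCB6 (AT1G15820) and LHCB5 (AT4G10340) both changed by -0.64 ± 0.09. The 1 higher member, LHB1B1 (0.55), has close copies and was not kept in all fits. Of 22 nuclear photosystem subunits 11 were lower and 0 higher (median -0.30), 2 of them, PSAN (AT5G64040) and PSBP-1 (AT1G06680), in all fits, and 19 were lower without 1000 µM replicate 1. Of 19 chlorophyll synthesis genes 8 were lower and 1 higher, and POR C (AT1G03630), a protochlorophyllide reductase, was the 1 kept (62.6 and 64.7 CPM against 111 and 106 CPM, -0.77 ± 0.10). ELIP1 (AT3G22840), a light-stress protein that binds free chlorophyll, was higher, with 21.6 and 24.0 CPM against 6.86 and 6.37 CPM (1.78 ± 0.19, adjusted p = 4.43e-06).

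For genes encoded in the organelles the 1000 µM libraries went separate ways. Of 88 chloroplast-encoded genes, 0 were called higher and 1 lower, ATCG00770 (-0.33, not kept in all fits). Without 1000 µM replicate 1 the counts were 0 higher and 38 lower, and without 1000 µM replicate 2 they were 27 higher and 8 lower. Of 49 mitochondrion-encoded genes, 2 were higher, ATMG00516 and ATMG01170, and 0 lower, and without 1000 µM replicate 2 the higher count was 23. The chloroplast share of counts was 1.36% and 1.06% at 1000 µM, against 1.30% and 1.43% at 100 µM, and the mitochondrial share was 0.105% and 0.0704% against 0.0681% and 0.0833%.

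Most heat shock genes were higher at 1000 µM than at 100 µM. Of 14 tested, 9 were higher and 0 lower (median 0.84), with 5 kept in all 4 leave-out fits, 5 without 100 µM replicate 1 and 6 without 100 µM replicate 2. HSP90.1 (AT5G52640), an inducible chaperone, had 120 and 80.5 CPM at 1000 µM, against 31.8 and 28.4 CPM at 100 µM (log2 change 1.73 ± 0.16, adjusted p = 5.19e-07). HSP70 (AT3G12580) had 295 and 185 CPM against 98.9 and 79.2 CPM (1.43 ± 0.16, adjusted p = 6.43e-06), and DREB2A (AT5G05410), a transcription factor of drought and heat, 18.6 and 20.1 CPM against 6.56 and 6.06 CPM (1.61 ± 0.20). The other kept members were MBF1C and HSFB2A, at 1.04 and 1.16. In the endoplasmic reticulum stress list 3 of 12 were higher and 0 lower, and BZIP60 (AT1G42990), its transcription factor, was the 1 kept, with 124 and 108 CPM against 58.2 and 52.2 CPM (1.07 ± 0.11, adjusted p = 1.85e-06). Of 13 autophagy genes 3 were higher, and NBR1 (AT4G24690), a receptor for ubiquitinated cargo, was kept (593 and 474 CPM against 347 and 352 CPM, 0.61 ± 0.10). Proteasome subunits had 12 of 39 higher and 0 lower, a count that was 1 without 100 µM replicate 1, 3 without 100 µM replicate 2 and 20 without 1000 µM replicate 2, with 0 calls kept in all fits.

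For some genes the 100 µM libraries lay outside the range of the other 4. Among the 873 genes that met the conditions for naming, 33 had both 100 µM libraries above all 4 others and 32 had both below. Those conditions already set the 100 µM libraries apart from the 1000 µM libraries. The place of the control libraries alone therefore decided these counts, which carry no test. The 4 widest gaps below belonged to genes of heat or drought stress. HSP90.1 had 52.4 and 48.8 CPM without melatonin, 31.8 and 28.4 CPM at 100 µM and 120 and 80.5 CPM at 1000 µM. MBF1C (AT3G24500), a coactivator of heat tolerance, had 17.8 and 18.7 CPM without melatonin, 9.69 and 10.6 CPM at 100 µM and 21.0 and 20.6 CPM at 1000 µM. DREB2A had 13.5 and 9.70 CPM without melatonin, 6.56 and 6.06 CPM at 100 µM and 18.6 and 20.1 CPM at 1000 µM. AT1G07400, a small heat shock protein gene, had 6.26 and 7.11 CPM, 2.98 and 4.97 CPM, and 14.5 and 9.35 CPM in the same order of doses.

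The 4 widest gaps above were AT1G15405, an RNA gene, FLS1, PCC1 (AT3G22231), a gene of pathogen and circadian responses, and the legume lectin gene AT5G03350. FLS1 had 16.7 and 20.9 CPM without melatonin, 31.9 and 30.4 CPM at 100 µM and 19.7 and 16.7 CPM at 1000 µM. PCC1 had 8.44 and 8.06 CPM without melatonin, 13.1 and 11.0 CPM at 100 µM and 5.95 and 3.16 CPM at 1000 µM. AT1G15405 had 2.33 and 2.19 CPM without melatonin, 15.8 and 29.4 CPM at 100 µM and 8.72 and 5.56 CPM at 1000 µM, and its 100 µM libraries lay far apart from each other. These genes were picked for lying outside the other groups, so their order is a description with no test of its own.

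**Figure D4:**
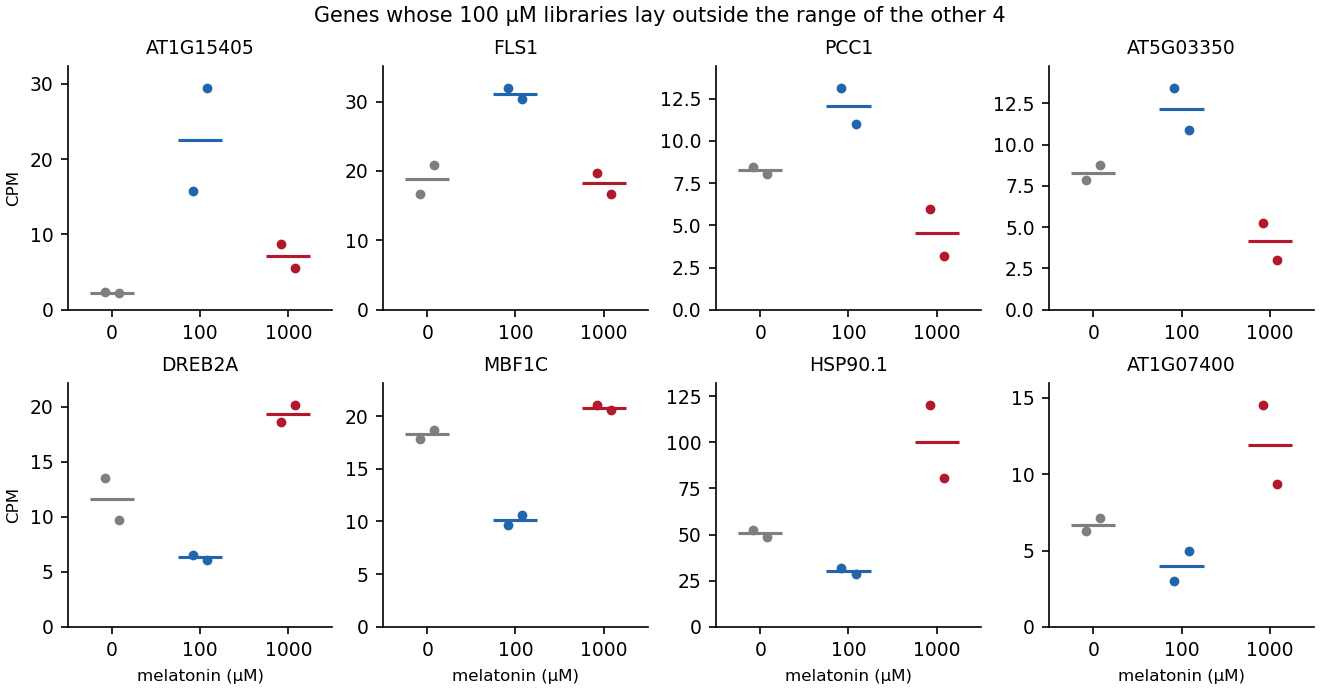
CPM on a linear axis from 0 for 8 genes without melatonin (grey), at 100 µM (blue) and at 1000 µM (red); points are the 2 libraries of each group and lines their means. In the upper row the 100 µM libraries lie above the other 4 and in the lower row below them, with HSP90.1 at 31.8 and 28.4 CPM at 100 µM.

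Transcription factor families differed in how many members rose. NAC factors, many of them linked to stress and senescence, had 11 of 43 higher and 0 lower, 8 of them in all fits (median 0.19). NAC001 (AT1G01010) had 40.0 and 43.1 CPM at 1000 µM, against 8.50 and 9.63 CPM at 100 µM (log2 change 2.2 ± 0.15, adjusted p = 4.08e-08), and NAC102 (AT5G63790) had 157 and 160 CPM against 78.9 and 84.4 CPM (0.96 ± 0.09). WRKY factors had 13 of 48 higher and 2 lower, with 7 and 0 kept. WRKY22 (AT4G01250), a factor of immune signalling, had 76.2 and 68.5 CPM against 34.4 and 35.6 CPM (1.05 ± 0.11), and WRKY6 (AT1G62300), linked to senescence, had 106 and 88.0 CPM against 47.6 and 48.3 CPM (1.01 ± 0.11). Over all tested genes 8.65% were higher and 7.30% lower, and MYB and bHLH factors lay near these shares. Of the MYB, bHLH and bZIP families, 6 of 65 MYB factors were higher and 5 lower, 5 of 85 bHLH factors were higher and 6 lower, and 3 of 44 bZIP factors were higher and 0 lower. Of these, MYB13 (AT1G06180), FBH4 (AT2G42280) and SPT (AT4G36930) were higher by 1.58, 0.70 and 0.89 in all fits. Of 15 AP2/ERF genes recognised by name, 4 were higher, none in all fits: the adjusted p of ERF5 (AT5G47230) was 0.0684 in the fit that left out 100 µM replicate 2.

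Of 6 cold response genes 4 were higher and 0 lower, 2 of them, RHL41 and STZ, in all fits; both encode zinc finger proteins. RHL41 (AT5G59820), also known as ZAT12, had 81.4 and 60.9 CPM at 1000 µM, against 17.4 and 18.5 CPM at 100 µM (log2 change 1.98 ± 0.16, adjusted p = 2.21e-07), and STZ (AT1G27730) had 148 and 107 CPM against 58.9 and 57.3 CPM (1.14 ± 0.14). In the senescence list 4 of 15 were higher and 0 lower, with NAC6 (AT5G39610), also known as ORE1, at 77.3 and 78.2 CPM against 38.5 and 42.9 CPM (0.94 ± 0.11), SAG21 (AT4G02380) at 0.73 ± 0.11, and WRKY6. ERF71 (AT2G47520), a factor of the hypoxia response, had 3.60 and 4.68 CPM against 0.298 and 0.466 CPM (3.39 ± 0.53, adjusted p = 0.00023), while the hypoxia list as a whole had 3 higher and 2 lower of 11. Of 14 clock genes 1 was higher and 2 lower, with BOA (AT5G59570) at 0.72 ± 0.11, and of 14 energy deprivation genes 5 were higher and 3 lower, with DIN2 (AT3G60140), a beta-glucosidase, at 1.32 ± 0.19.

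Receptor and defence families held both directions, beside 8.65% higher and 7.30% lower over all tested genes, shares that the defensin-like counts lay near. Of 242 receptor-like kinases 36 were higher and 25 lower, with 15 and 2 kept in all fits (median -0.06). AT5G48540, a receptor-like kinase relative, had 105 and 80.4 CPM at 1000 µM, against 27.0 and 25.5 CPM at 100 µM (log2 change 1.82 ± 0.14, adjusted p = 1.03e-07), and AT1G51820 and AT3G22060 rose by 1.65 and 1.23. Defensin-like genes gave 1 call each way of 12: AT3G59930 had 251 and 228 CPM against 46.8 and 55.6 CPM (2.23 ± 0.13, adjusted p = 6.16e-09), and PDF1.4 (AT1G19610) had 5.12 and 4.55 CPM against 18.5 and 22.7 CPM (-2.09 ± 0.25). The lipid-transfer gene AZI1 (AT4G12470), known from systemic immunity, had 2230 and 1620 CPM against 952 and 1030 CPM (0.96 ± 0.12, adjusted p = 3.37e-05). It stood among the 6 largest gains in CPM, by the same rule, with the glycine-rich protein gene GRP3S (AT2G05380; 2640 and 2230 CPM against 816 and 850 CPM), the polyamine synthesis gene ADC2 (AT4G34710; 2770 and 1990 CPM against 1120 and 1180 CPM) and the lectin gene AT1G78830 (2060 and 1640 CPM against 809 and 816 CPM). The log2 changes of these 3 were 1.55, 1.05 and 1.19.

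Genes that loosen or build the cell wall divided by family. Of 20 expansins, which loosen walls during growth, 9 were lower at 1000 µM and 1 higher, with 5 lower without either 100 µM library and 4 in all fits (median -0.53). EXPA8 (AT2G40610) had 2.49 and 2.15 CPM at 1000 µM, against 7.01 and 9.63 CPM at 100 µM (log2 change -1.84 ± 0.29, adjusted p = 0.000222), and EXPB3 (AT4G28250) had 20.6 and 19.7 CPM against 40.3 and 32.9 CPM (-0.86 ± 0.13). EXPA6 (AT2G28950) and EXPA11 made up the 4, at -0.63 and -1.20. Xyloglucan transferases, which cut and rejoin the xyloglucan of the wall, went both ways: 7 of 26 were higher and 5 lower, 4 and 3 of them in all fits. XTR6 (AT4G25810) had 477 and 477 CPM against 164 and 160 CPM (1.56 ± 0.10, adjusted p = 1.13e-08), and XTH30 (AT1G32170) and XTH18 (AT4G30280) rose by 1.38 and 1.33. The kept falls were XTH33, XTH14 and XTH6, at -0.81, -0.76 and -0.85.

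Class III peroxidases, which act on wall phenolics, had 12 of 51 higher and 6 lower, 3 of each in all fits. PER4 (AT1G14540) had 45.1 and 31.7 CPM at 1000 µM, against 5.07 and 5.90 CPM at 100 µM (log2 change 2.80 ± 0.20, adjusted p = 6.77e-08), and AT2G37130 had 154 and 166 CPM against 269 and 267 CPM (-0.74 ± 0.09). Pectin methylesterase counts lay near the shares over all tested genes, 8.65% higher and 7.30% lower. Of 43 pectin methylesterases and inhibitors, 3 were higher and 3 lower, and of 9 cellulose synthases 1 was higher (CESA4) and 2 lower (CESA2 and CESA5), and none of these 3 calls was kept in all fits. Aquaporins, the water channels, had 10 of 27 lower and 2 higher (median -0.34), and the lower count was 5 without 100 µM replicate 1 and 3 without 100 µM replicate 2. The 3 kept were NIP5;1 (AT4G10380), a boric acid channel, RD28 (AT2G37180) and PIP3 (AT4G35100), at -0.76, -0.90 and -0.54. PIP3 had 462 and 477 CPM at 1000 µM, against 666 and 699 CPM at 100 µM.

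**Figure D5:**
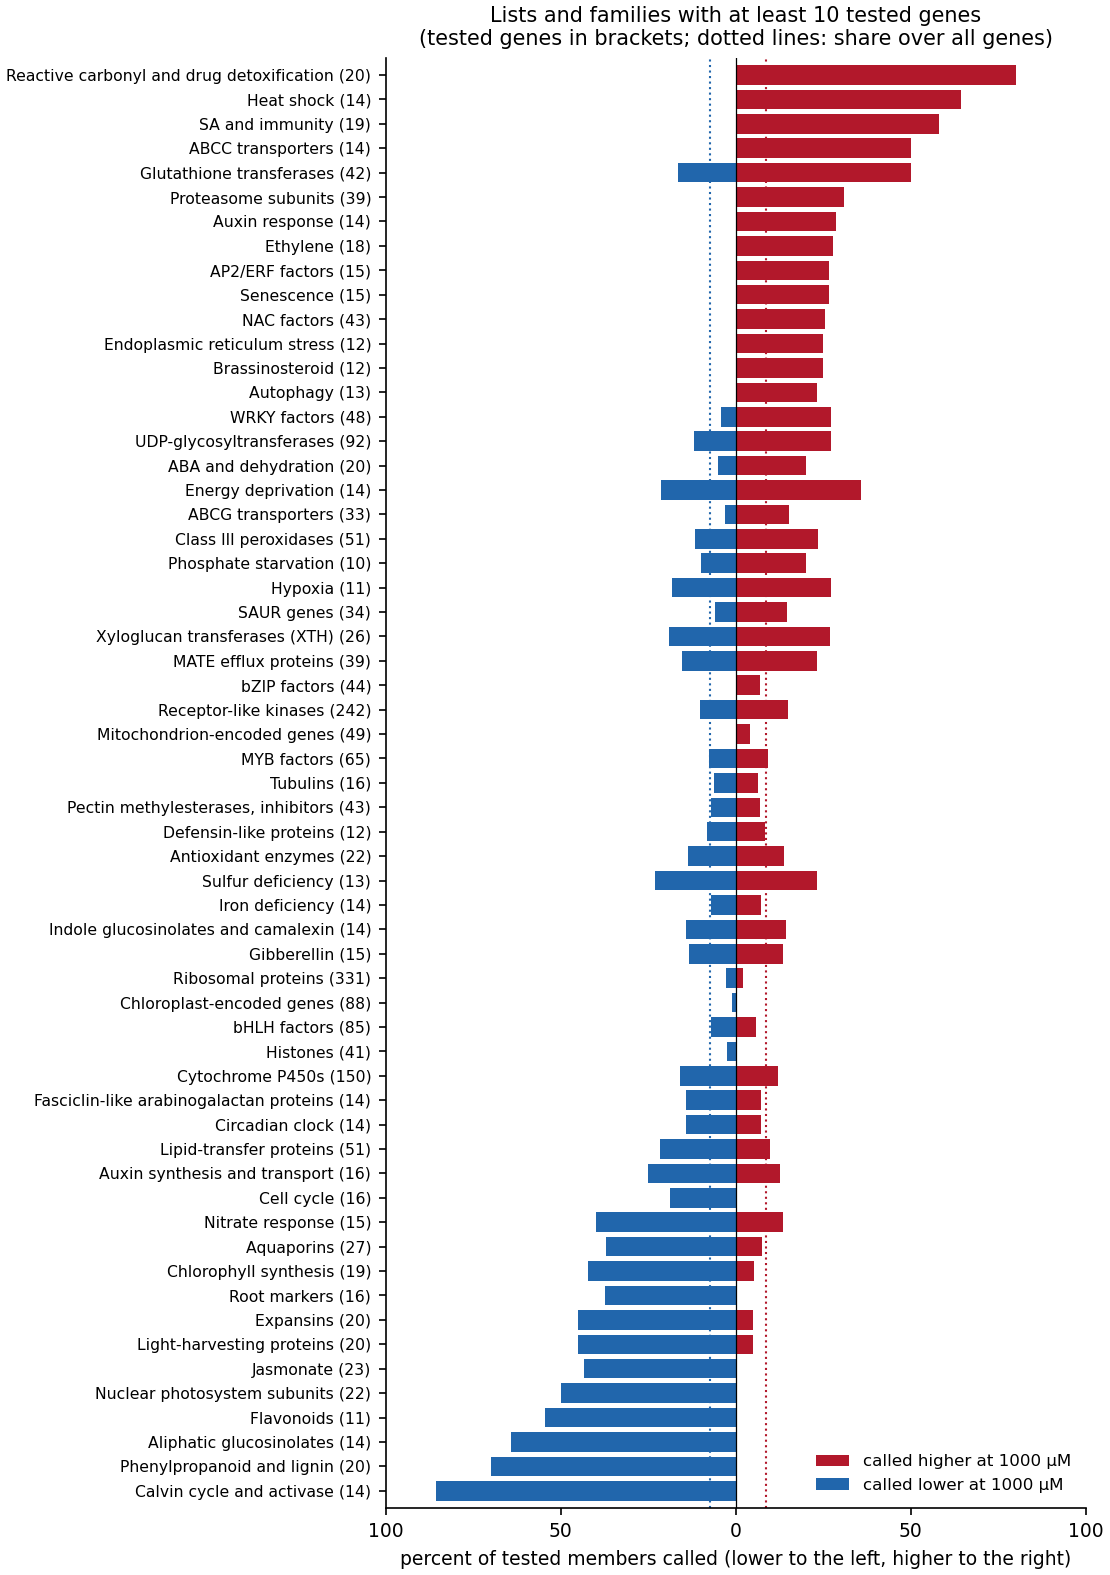
Percent of the tested members called higher at 1000 µM (red, right) and lower (blue, left) for each list or family with at least 10 tested genes, whose number stands in brackets; dotted lines mark 8.65% and 7.30%, the shares over all genes. Detoxification, with 16 of 20 higher, is at the top and the Calvin cycle, with 12 of 14 lower, at the bottom; ribosomal proteins and chloroplast-encoded genes lie inside the dotted lines.

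Of 16 root markers tested, 6 were lower at 1000 µM and 0 higher (median -0.47), and 4 of the 10 not called had positive changes. The 6 were PYK10, SKOR, TIP2;3, SHV2, LRX1 and PRP3, of which PYK10 and SKOR were kept in all 4 leave-out fits, and the count was 4 without 100 µM replicate 1, 3 without 100 µM replicate 2 and 4 without 1000 µM replicate 1. PYK10 (AT3G09260) had 2010 and 2050 CPM at 1000 µM, against 3060 and 3120 CPM at 100 µM (log2 change -0.61 ± 0.10, adjusted p = 0.000301), and SKOR was described above. NRT1.5 (AT1G32450), a nitrate transporter that loads the xylem of roots, had 24.6 and 33.8 CPM against 97.4 and 103 CPM (-1.78 ± 0.15, adjusted p = 3.07e-07). It was the 1 kept of 6 lower among 15 nitrate genes, of which 2 were higher. The called root markers, of which TIP2;3 is also counted among the aquaporins, moved in the same direction as the lists of phenylpropanoids, expansins, aquaporins and nitrate genes, and their part in those results was not tested. Of 9 guard cell, 2 seed storage and 3 shoot apex markers tested, 0 were called; their smallest adjusted p were 0.0756 for TMM, 0.203 for CRU3 and 0.272 for STM.

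Of 13 sulfur deficiency genes, 3 were higher in all fits: APR3 (AT4G21990), which reduces sulfate, with 339 and 311 CPM at 1000 µM, against 170 and 176 CPM at 100 µM (log2 change 0.91 ± 0.09, adjusted p = 1.91e-06), LSU2 (AT5G24660; 0.93 ± 0.15) and DIN2. A further 3 were lower, AT5G26220, SULTR1;2 and SULTR4;2, none in all fits. Over all tested genes 8.65% were higher and 7.30% lower, and the iron deficiency counts lay near these shares. Of 14 iron deficiency genes 1 was higher, BHLH101 (AT5G04150, 0.64 ± 0.13), and 1 lower, NAS1. Among 6 iron storage genes FER1 (AT5G01600, 0.52 ± 0.11) was higher. Without 100 µM replicate 1 the adjusted p of BHLH101 and FER1 was 0.0632 and 0.0676. Of 10 phosphate starvation genes 2 were higher, SPX1 and PHF1 (AT3G52190; 0.68 ± 0.16), and 1, PHT1;4, lower, none in all fits.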

How the data were processed

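The deposited table held whole-number counts per gene for 6 libraries and 32678 genes, made by the authors. The genome build was TAIR10 and the tools included HTSeq 0.6.1, TopHat2 2.0.12, DESeq 1.18.0 and Bowtie2 2.2.3, per the submitters' processing notes. What each tool did, its settings and whether counting used strand are not given there or elsewhere in the labels. Groups came from the treatments in the labels, and the replicate numbers did not pair the libraries.

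From the counts, genes were filtered by expected count (filterByExpr, 18380 kept and 14298 removed), libraries were scaled by TMM, and the 3 groups of 2 libraries were fitted together with edgeR 4.0.16 in R 4.3.3. The contrast of 1000 µM minus 100 µM was tested by edgeR's quasi-likelihood test with Benjamini-Hochberg adjustment over all 18380 genes at a threshold of 0.05; every adjusted p printed comes from it unless DESeq2 1.42.0 is named. The fit had 3 residual degrees of freedom, 14.1 prior degrees of freedom and a common biological coefficient of variation of 7.8%. Standard errors were taken as the absolute log2 change over the root of the F statistic. CPM used the scaled library sizes. The procedure was tested on simulated data. Figures were drawn with Matplotlib 3.10.9.

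The 39 gene lists and 32 families (71 in all) and the rules below were chosen with earlier results of these data known. Of 603 list entries 579 were kept, and family patterns were corrected after inspection for names caught in error. Lists are described by counts and medians and carry no test. Named genes were the 10 largest rises and falls, the 6 largest gains and losses in CPM, the 4 genes most above and the 4 most below both other groups at 100 µM, all with a mean of at least 2 CPM, and up to 3 members per list with the smallest adjusted p that held in all 4 leave-out fits, or else the member with the smallest p. Further list members are named where all called members of a kind are listed, or by their place beside named genes, and were chosen after their values were seen. The promoter sequence of 1 further gene is not reported here. Symbols, products and promoter windows are from RefSeq on TAIR10.1, which matched 31912 of the genes and left 766 unmatched.

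The named genes that overlap another gene are AT5G25260, SKOR, AT4G25090, 4CL1, GSTF8, RCA, GLDP1, CA1, PYK10, AT5G03350, DREB2A, MBF1C, FRK1, ABCB4, BCAT4, IMD1, TRP1, UGT73B4, CYP81D11, BHLH101, FER1, APR3, NRT1.5, NBR1, GOX1, POR C, BOA, CYCD3;1, GR1, GSTU7, UGT73B3, ABCG1, AT3G23550, DTX1, NAC102, NAC13, FBH4, AT5G24490, PBB2, LHCB3, LHCB6, PSAN, PSBP-1 and AT2G47550. Close copies such as UGT73B1 to UGT73B3, the GSTU cluster, AOC1 and AOC2, 4CL1 and 4CL2 and the light-harvesting genes may share reads. Alternatives were other scalings and filters, the 4 libraries alone, a replicate block, leaving out each library, and DESeq2.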

Additional observations from a re-analysis of the deposited data

How the results depend on the processing

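No gene called both in the main result and in 1 of the 15 alternatives changed direction. DESeq2 called 1567 genes, 934 higher and 633 lower at 1000 µM, of which 1566 were also called by edgeR's quasi-likelihood test. Leaving out 1 library at a time, controls included, gave 1158 to 4442 calls, 700 to 2606 higher and 458 to 1836 lower, with the fewest without 100 µM replicate 1 and the most without 1000 µM replicate 2. Same-numbered libraries of 1000 and 100 µM deviated from their group means with a correlation of -0.0662, so the numbers were not taken as pairs, and the fit with a replicate block called 2508 genes. The other scalings and filters and the fit on the 4 libraries alone gave 2387 to 3461 calls. Among the named genes, the calls of BR6OX2, PHF1, ARR9, CYCD3;1, CESA2, FER1, BHLH101, AT5G24490, PBB2, ERF5, CYP81F2, HTA6, ATCG00770 and ATMG01170 were lost without at least 1 library of these doses; the cause was not tested. With 2 libraries per dose, small changes of weakly counted genes could not be resolved.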

Other observations

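Of 16 cell cycle genes, 3 were lower at 1000 µM and 0 higher, namely CYCD3;1, SYP111 and CDKB2;1, none in all 4 fits that left out 1 library of these doses. CYCD3;1 (AT4G34160), a cyclin of cell division in shoots, had 10.1 and 9.86 CPM at 1000 µM, against 16.4 and 17.7 CPM at 100 µM (log2 change -0.77 ± 0.17, adjusted p = 0.00513). Of 41 histone genes 1 was lower, HTA6 (AT5G59870; -0.38 ± 0.12), and of 16 tubulin genes 1 was lower, TUB5 (AT1G20010), with 131 and 126 CPM against 177 and 183 CPM (-0.48 ± 0.09), and 1, AT1G50020, higher. Of 331 ribosomal protein genes whose names mention no organelle, 7 were higher and 9 lower, and AT5G24490, which had the smallest p, is annotated as a 30S protein (141 and 178 CPM against 228 and 236 CPM). The ribosomal counts were 8 higher and 24 lower without 1000 µM replicate 1, and 40 higher and 17 lower without 1000 µM replicate 2.

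Surface and wall protein families held both directions, as did all tested genes, of which 8.65% were higher and 7.30% lower. Of 51 lipid-transfer genes, 5 were higher and 11 lower, 3 and 2 of them in all fits. AT4G12490, which resembles the immunity gene AZI1, had 152 and 106 CPM at 1000 µM, against 65.8 and 54.8 CPM at 100 µM (1.09 ± 0.14, adjusted p = 4.01e-05), and AT3G22600 had 33.6 and 30.5 CPM against 14.2 and 13.4 CPM (1.22 ± 0.14). AT1G55260 had 24.0 and 27.1 CPM against 43.8 and 38.7 CPM (-0.69 ± 0.12). FLA9 (AT1G03870), a fasciclin-like arabinogalactan protein of the wall, had 1160 and 906 CPM against 691 and 665 CPM (0.60 ± 0.11, adjusted p = 0.000984), while FLA7 and FLA15 were lower, the 3 calls among 14 genes. Among genes gathered by name as pectin methylesterases or inhibitors, AT2G47550 and AT1G02816 were higher by 1.15 and 0.78. ATPMEPCRB (AT4G02330) had a log2 change of -0.94. AT2G47550 and ATPMEPCRB are annotated to the invertase and pectin methylesterase inhibitor superfamily. AT1G02816 is annotated as a pectinesterase and as a protein of unknown function (DUF538). Of 34 SAUR genes, small auxin-induced proteins, 5 were higher and 2 lower, with AT3G12830 at 15.9 and 14.4 CPM against 4.92 and 6.06 CPM (1.46 ± 0.22).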
